A study of Mus musculus with 2 samples.

Results

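The opioid peptides and their receptors were examined in brain RNA of TDAG51-/- dams and 2 kinds of control dams. The members are the precursor genes Penk, Pdyn and Pnoc and the receptor genes Oprm1, Oprd1, Oprk1 and Oprl1, taken by the gene name listed for each array probe, with Penk listed as Penk1. They comprised 7 genes and 12 probes of the 41174 probes on the array. Total RNA from brain of C57BL/6J females 8 weeks old, obtained on postpartum day 0 (P0), was measured on 2 Agilent arrays of the whole mouse genome, each read in 2 colours. The TDAG51 knockout (KO) RNA, called TDAG51-/- here, was labelled with Cy3 on both arrays. It was set against TDAG51 wild-type (WT) RNA, called TDAG51+/+, in Cy5 on array 1, and against RNA labelled KO Tg in Cy5 on array 2. The KO Tg genotype also lacks the endogenous gene and carries a murine TDAG51 transgene under the BAI1-AP4 promoter, which per the study's text is active mainly in cerebral cortex and hippocampus. The labels do not give the number of dams behind each RNA or the transgenic line, which the study's text names as TDAG51-/-Tg2. Each comparison was 1 array with the dyes not swapped, so a difference between genotypes and one between dyes cannot be told apart, dams could not be tested against each other, and the precision is set by the small number of arrays.

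Opioid peptides are cut from large precursor proteins. Proenkephalin gives the enkephalins, prodynorphin gives the dynorphins and neoendorphins, and prepronociceptin gives nociceptin. Enkephalins act mainly at the delta and mu receptors (Oprd1 and Oprm1), dynorphins mainly at the kappa receptor (Oprk1), and nociceptin at the nociceptin receptor (Oprl1), all of which couple to inhibitory G proteins. In the striatum, proenkephalin is typical of the projection neurons with D2 dopamine receptors and prodynorphin of those with D1 receptors, and both are also made in other regions, including the hypothalamus.

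The probes are DNA oligonucleotides of 60 bases, and 4 of them that lie in coding sequence are shown because they tell which part of each transcript was read. The capitals mark the codons of Met-enkephalin in Penk (found 2 times), the lysine-arginine codons of the cleavage site that follows nociceptin in Pnoc, and codons of the seventh transmembrane segment in Oprm1. The Oprl1 probe holds codons of the first transmembrane segment, with no capitals.
Penk, A_52_P286166, chr4:4061458-4061517, minus strand: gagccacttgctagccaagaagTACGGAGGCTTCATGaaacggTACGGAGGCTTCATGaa
Pnoc, A_52_P425416, chr14:60264987-60265046, minus strand: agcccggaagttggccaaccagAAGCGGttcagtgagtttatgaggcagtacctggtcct
Oprm1, A_51_P100309, chr10:3516154-3516213, minus strand: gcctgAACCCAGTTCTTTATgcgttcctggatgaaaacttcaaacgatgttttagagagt
Oprl1, A_52_P297290, chr2:182216755-182216814, plus strand: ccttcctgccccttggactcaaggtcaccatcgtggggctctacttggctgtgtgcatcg
Sequences, strands and coordinates were read from the scanner files, whose mouse build is mm7. The 15 bases in capitals in Penk occurred on either strand in 1 probe of the array (0.00243% of all probes), and so did the 15 bases in capitals in Oprm1. The 6 bases in capitals in Pnoc occurred in 272 probes (0.661%).

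The checks of the samples come first. The probe for TDAG51, listed as Phlda1, had an intensity of 350.5 in TDAG51-/- and 7283 in TDAG51+/+ on array 1, a ratio 17.3-fold lower in TDAG51-/-. On array 2 it read 44.1 in TDAG51-/- and 50.5 in the RNA labelled KO Tg, neither well above background, so this probe did not show the transgene. The TDAG51-/- RNA was thus well above background on array 1 but not on array 2, and its normalized level fell by 2.79 on the log2 scale from array 1 to array 2, beside a robust SD of 0.15 over genes between these channels. Whether the transgene holds the sequence of the probe is not given in the sources used here. The RNA is therefore called the RNA labelled KO Tg throughout. All 8 general brain markers (such as Snap25, Syt1, Gfap and Mbp) were detected on both arrays. Over 245 probes with at least 5 spots, repeat spots had a median SD of 0.063 in log2 ratio on array 1 and 0.065 on array 2, which covers technical error alone. The 2 TDAG51-/- channels, compared across arrays, differed with a robust SD of 0.15 over the genes above background in every channel, and the 2 control channels with one of 0.38. The study's text does not state whether both TDAG51-/- channels hold RNA of the same dams. They are therefore not taken as independent samples.

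Among the opioid genes, the precursors Penk and Pdyn were lower in TDAG51-/- brain by at least 2-fold in each comparison, and no member was at least 2-fold higher. The other 5 genes stayed within 2-fold of both controls by their brightest probe. A gene counts as detected where the scanner marked its brightest probe as well above background in 1 or both channels of the array, and all 7 were detected on both arrays. Of all detected genes, 4.66% were lower than in TDAG51+/+ by at least 2-fold and 4.87% were higher. Against the RNA labelled KO Tg the shares were 3.98% and 4.71%, and against both controls 1.57% and 2.77%. Probes that matched no known gene are included in these shares, as genes under their listed name or probe name. The median log2 ratio of the 7 genes was -0.26 against TDAG51+/+ and -0.32 against the RNA labelled KO Tg, and that of all detected genes was 0.00 and 0.01. The TDAG51-/- genotype, and possibly the same RNA, is in each comparison, so a gene low there is low in both. Of the 12 probes, 10 were well above background in all 4 channels, 11 in at least 1 channel of each array, and 1 in none. None of the 12 was saturated.

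**Figure D1:**
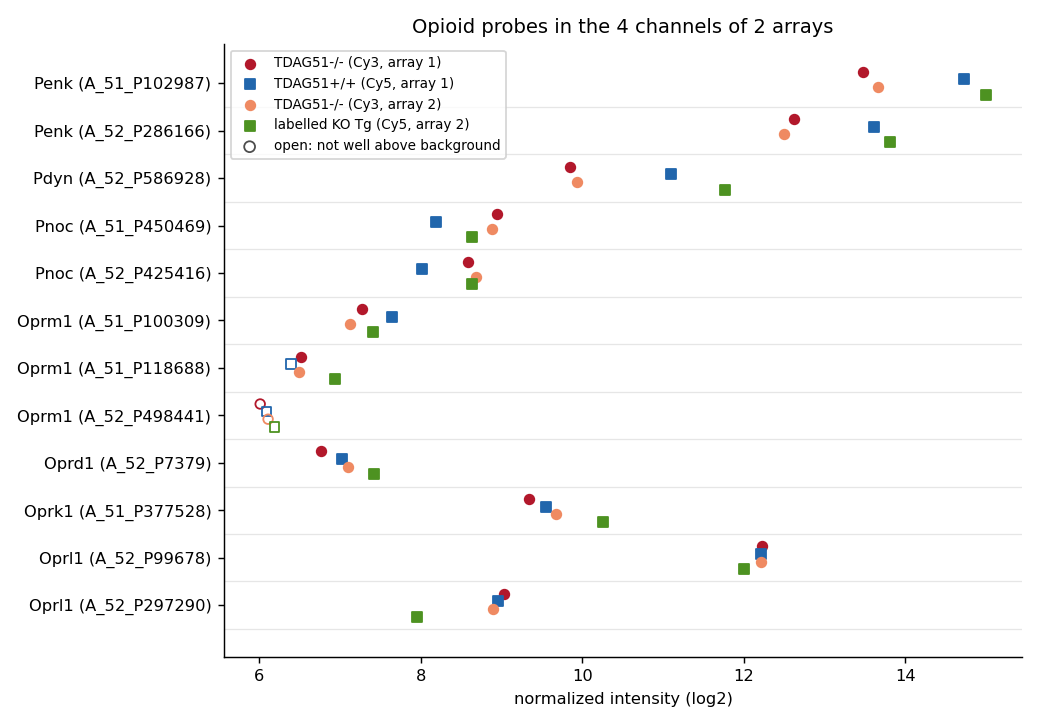
Normalized log2 intensity (x axis) of the 12 opioid probes (rows) in the 4 channels, with circles for TDAG51-/- and squares for the controls. At both Penk probes and the Pdyn probe both circles lie left of both squares, with log2 ratios within an array of -0.98 to -1.84, and 1 Oprm1 probe is open (not well above background) in every channel. Levels of different probes are not comparable, since probes differ in brightness.

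Penk encodes proenkephalin. Its brighter probe (NM_001002927, chr4:4060735-4060794, minus strand) read 9329 in TDAG51-/- and 32634 in TDAG51+/+ on array 1, and 10680 in TDAG51-/- and 40678 in the RNA labelled KO Tg on array 2. These are intensities as scanned, before background correction and dye normalization, and the ratios below are after both. The probe was 2.38-fold lower in TDAG51-/- than in TDAG51+/+ (log2 ratio -1.25, scanner error 0.23) and 2.52-fold lower than in the RNA labelled KO Tg (log2 ratio -1.33, scanner error 0.24). The scanner error is the software's own error of a log ratio, put on the log2 scale, and it covers the spot and not the dams.

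The other Penk probe, which holds the Met-enkephalin codons, read 5370 in TDAG51-/- and 14367 in TDAG51+/+ on array 1 and 4966 and 17003 on array 2. Its log2 ratio of -0.98 (scanner error 0.22) against TDAG51+/+ fell just short of 2-fold, at 1.97-fold, and against the RNA labelled KO Tg it was -1.31 (2.48-fold lower). Both TDAG51-/- channels were thus below both control channels at both Penk probes. The normalized log2 levels of the brighter probe were 13.48 and 13.67 in TDAG51-/-, 14.73 in TDAG51+/+ and 0.27 above that in the RNA labelled KO Tg. Of all detected genes, 2.64% had a lower ratio than Penk against TDAG51+/+ and 1.82% against the RNA labelled KO Tg.

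Pdyn encodes prodynorphin and had 1 probe (NM_018863, chr2:129427440-129427499, minus strand). It read 840.9 in TDAG51-/- and 2312 in TDAG51+/+ on array 1, and 890.5 in TDAG51-/- and 3836 in the RNA labelled KO Tg on array 2. Both TDAG51-/- values were low and close together, and the RNA labelled KO Tg had the highest value. Pdyn was 2.37-fold lower in TDAG51-/- than in TDAG51+/+ (log2 ratio -1.25, scanner error 0.24) and 3.58-fold lower than in the RNA labelled KO Tg (log2 ratio -1.84, scanner error 0.27). Of all detected genes, 2.69% and 0.626% had a lower ratio.

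Pnoc, the precursor of nociceptin, lay on the other side of 0. Its brighter probe (NM_010932, chr14:60261851-60261910, minus strand) read 453.5 in TDAG51-/- and 280.5 in TDAG51+/+ on array 1, and 431.3 and 418.9 on array 2. The log2 ratio was 0.75 (scanner error 0.22) against TDAG51+/+ and 0.25 (scanner error 0.21) against the RNA labelled KO Tg. The probe with the cleavage site codons had log2 ratios of 0.57 and 0.04, from intensities of 361.8 and 246.4 on array 1 and 371.3 and 420.4 on array 2. Neither probe passed 2-fold. At the second of these probes the normalized levels of the groups overlapped, with 8.59 and 8.68 in TDAG51-/- beside 8.02 in TDAG51+/+ and 8.64 in the RNA labelled KO Tg.

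**Figure D2:**
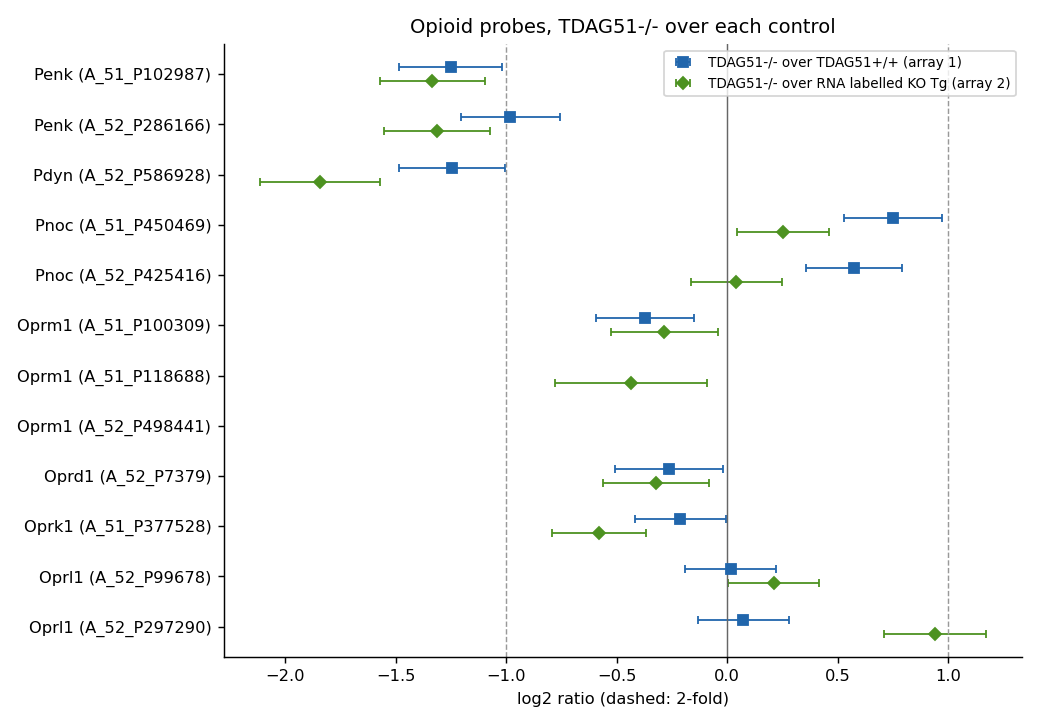
Log2 ratio of TDAG51-/- over TDAG51+/+ (squares, array 1) and over the RNA labelled KO Tg (diamonds, array 2) for each opioid probe, with bars for the scanner error of the spot. Penk and Pdyn lie at -0.98 to -1.84 on the left, all beyond the dashed 2-fold line except 1 Penk probe at -0.98 just inside it, and Pnoc lies to the right of 0. Ratios with a channel near background are not drawn.

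The mu receptor gene Oprm1 had 3 probes. The brightest (NM_001039652), in the codons of the seventh transmembrane segment, read 134.9 in TDAG51-/- and 182.8 in TDAG51+/+ on array 1, and 116.8 in TDAG51-/- and 169.1 in the RNA labelled KO Tg on array 2. The log2 ratios were -0.37 (scanner error 0.22) and -0.28 (scanner error 0.24), within 2-fold. The probe for the splice form listed as MOR-1Ia (AF260307) read 71.4 in TDAG51-/- and 64.0 in TDAG51+/+, the latter not well above background. The ratio is therefore given only as at least 1.09-fold higher. Its log2 value of 0.13 was smaller than the scanner error of 0.39, so no direction is read from it. On array 2 the probe read 69.0 and 113.8, with a log2 ratio of -0.44 (scanner error 0.34). The probe for a further variant (AF062752) read 49.1 to 59.4 and was not well above background in any channel. Oprm1 thus had a measured ratio on both arrays at 1 of its 3 probes, and the median local background was 44.0 in Cy3 and 39.0 in Cy5 on array 1.

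Oprd1 encodes the delta receptor and had 1 probe (NM_013622, chr4:131325891-131325950, minus strand). It read 93.0 in TDAG51-/- and 112.2 in TDAG51+/+ on array 1, and 115.2 in TDAG51-/- and 172.2 in the RNA labelled KO Tg on array 2. The log2 ratios were -0.26 (scanner error 0.24) and -0.32 (scanner error 0.24). The TDAG51-/- level on array 2 (7.10 on the normalized log2 scale) was above that of TDAG51+/+ on array 1 (7.03), and the 2 TDAG51-/- levels differed by 0.33, which is no smaller than either ratio.

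Oprk1, the kappa receptor gene, also had 1 probe (NM_011011, chr1:5602727-5602786, plus strand). Intensities were 592.8 in TDAG51-/- and 769.6 in TDAG51+/+ on array 1, and 750.8 in TDAG51-/- and 1327 in the RNA labelled KO Tg on array 2. TDAG51-/- was 1.16-fold lower than TDAG51+/+ (log2 ratio -0.21, scanner error 0.21) and had a log2 ratio of -0.58 (scanner error 0.21) against the RNA labelled KO Tg. The levels in TDAG51-/- were 9.34 and 9.68, on either side of the 9.55 in TDAG51+/+, and both were below the 10.26 in the RNA labelled KO Tg.

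The nociceptin receptor gene Oprl1 had 2 probes that differed in their ratios on array 2. The brighter (NM_011012, chr2:182221481-182221540, plus strand) read 4230 in TDAG51-/- and 5232 in TDAG51+/+ on array 1, and 4279 and 4649 on array 2. After normalization its log2 ratios were 0.01 (scanner error 0.20) and 0.21 (scanner error 0.20), and their sign depended on the scaling. Without normalization they were -0.31 and -0.12, and with median centring -0.15 and 0.06. The probe in the codons of the first transmembrane segment read 477.6 in TDAG51-/- and 499.3 in TDAG51+/+ on array 1, and 433.3 in TDAG51-/- and 252.5 in the RNA labelled KO Tg on array 2. Its log2 ratio was 0.07 against TDAG51+/+ and 0.94 (1.92-fold higher, scanner error 0.23) against the RNA labelled KO Tg. That RNA had the lowest of the 4 normalized levels at both probes.

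**Figure D3:**
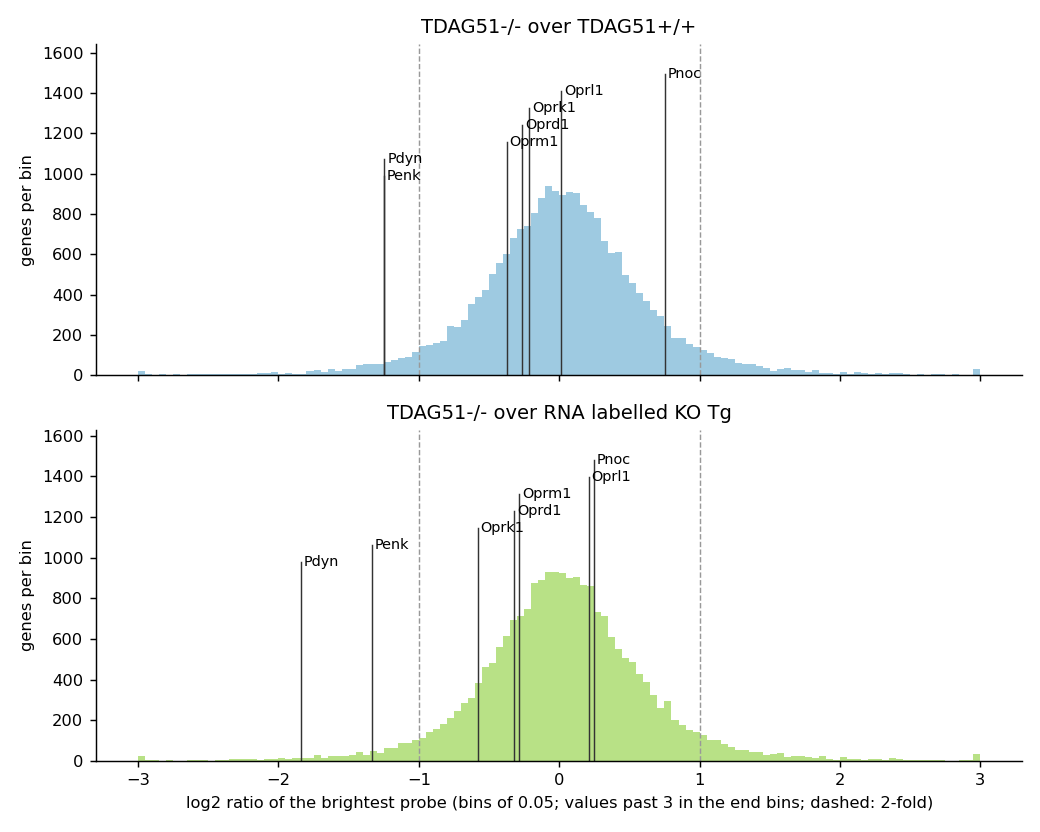
Histograms of the log2 ratio of the brightest probe of every gene detected on both arrays (x axis, bins of 0.05; y axis, genes per bin), for TDAG51-/- over TDAG51+/+ (top) and over the RNA labelled KO Tg (bottom), with a labelled line for each opioid gene. Penk and Pdyn lie left of the dashed 2-fold line in both, and the other 5 genes lie between -0.58 and 0.75.

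The controls were also compared with each other across arrays, on single-channel levels normalized within and between arrays. By the brightest probe, 5 of the 7 genes were higher and 2 lower in the RNA labelled KO Tg than in TDAG51+/+, and none was 2-fold apart. Of all genes above background in every channel, 6.43% were at least 2-fold apart between these controls, and 0.306% between the 2 TDAG51-/- channels. The difference was 0.71 on the log2 scale (1.63-fold) for Oprk1 and 0.68 (1.60-fold) for Pdyn. For Pnoc, Oprd1 and Penk it was 0.44, 0.38 and 0.27, and for Oprm1 and Oprl1 it was -0.23 and -0.20. As the difference of the ratios within the arrays, it was smaller for Oprk1 (0.37), Oprd1 (0.06), Penk (0.08) and Oprm1 (-0.09) and was 0.60 for Pdyn and 0.50 for Pnoc. With offset 0 it was 0.57 for Oprd1. By the levels, the differences of Penk, Oprm1 and Oprl1 were smaller than the robust SD of 0.38 over all genes. The 2 TDAG51-/- channels differed by 0.33 for Oprd1 and 0.34 for Oprk1, and by -0.14 to 0.19 for the brightest probes of the other 5 genes. At the Oprl1 probe in the first transmembrane segment the RNA labelled KO Tg was 2.00-fold lower than TDAG51+/+.

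The genes that make, break down and transduce opioid peptides were taken from 5 lists with 52 genes, of which 51 had a probe and 50 were detected on both arrays. By the brightest probe, 4 of the 50 were at least 2-fold lower than in both controls and none was higher. Of all detected genes, 1.57% were at least 2-fold lower than in both controls and 2.77% higher. The median log2 ratio of the 50 was -0.10 against TDAG51+/+ and -0.25 against the RNA labelled KO Tg. With median centring the medians were -0.30 and -0.47 and 6 genes were lower, and without normalization -0.45 and -0.66 and 7 genes. Over all detected genes the medians were then also lower, -0.08 and -0.09 with median centring and -0.23 and -0.28 without normalization. With the median of a gene's detected probes, 3 pathway genes were lower. All 4 genes that were lower by the brightest probe belong to signalling or its regulation. Rgs9, a striatal regulator that speeds up the switching off of G proteins, was 2.78-fold lower than in TDAG51+/+ and 3.45-fold lower than in the RNA labelled KO Tg. Rgs4, of the same family, had a log2 ratio of -1.63 against TDAG51+/+ and was at least 3.1-fold lower than in the RNA labelled KO Tg, where its brighter channel was saturated. Rgs14, another regulator of this family, was 2.04-fold and 2.14-fold lower. Kcnj6, a subunit of the potassium channel that G proteins open, was 5.45-fold and 3.57-fold lower by its brighter probe, but its other probe had log2 ratios of 0.10 and -0.10. The other probe of Rgs4 had log2 ratios of -1.34 and -2.16.

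In the list of peptide processing enzymes and their partners, none of 9 genes was 2-fold from both controls, and with median centring or without normalization 1 was lower. The median log2 ratios were -0.06 and -0.07, and without normalization -0.52 and -0.71. Cpe, the carboxypeptidase that trims basic residues from the cut peptides, had the lowest ratios of this list, -0.83 and -0.81. The convertase Pcsk2 had -0.55 and -0.65, and Pcsk1 had -0.49 and 0.32. None of the 8 genes of peptide degradation, such as the neprilysin gene Mme (0.03 and -0.28), was 2-fold from both controls. Of the 15 detected genes of opioid receptor signalling, 10 had a ratio below 0 against both controls and 3 above 0 against both. Pomc, the precursor of beta-endorphin, read 1095 in TDAG51-/- and 1468 in TDAG51+/+ on array 1 and 1159 and 1625 on array 2. Its log2 ratios were -0.22 and -0.24, and it was 1 of 5 detected genes of related precursors and receptors, of which none was 2-fold from either control.

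By their medians, the marker lists of striatum, of cortex and hippocampus and of hypothalamus were lower in TDAG51-/- than in both controls, as Penk and Pdyn were. The cerebellum and hindbrain lists were higher. In RNA from a whole brain, fewer cells of a type, less RNA per cell and a different share of regions in the tissue cannot be told apart. Of the 14 genes in the striatum list, 11 were detected, and 8 of these were at least 2-fold lower in TDAG51-/- than in both controls, with medians of -1.41 and -1.43 on the log2 scale. Their summed normalized intensity was 72331 and 66510 in the TDAG51-/- channels, 179107 in TDAG51+/+ and 171635 in the RNA labelled KO Tg. Without Foxp1, which was saturated in both controls, the sums were 52448, 47465, 126871 and 120242. Among the bright ones, Adora2a, the adenosine receptor of the neurons that also make enkephalin, had log2 ratios of -2.31 and -2.15. Ppp1r1b, a phosphatase inhibitor of most striatal projection neurons, had ratios of 0.00 and -0.20. Drd1, a receptor of the neurons that make dynorphin, had -2.44 and -2.42, and Drd2 had 0.10 and 0.20. Drd1 and Drd2 were named after their values were seen. The ratios of Penk and Pdyn were nearer to 0 than the striatum median against TDAG51+/+, and against the RNA labelled KO Tg that of Pdyn was farther from 0.

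In the hypothalamus list, 3 of 10 detected genes were at least 2-fold lower than in both controls, with medians of -0.47 and -0.80, among them Hcrt (-1.39 and -1.10) and Pmch (-1.13 and -1.33), the precursors of orexin and melanin-concentrating hormone. That number was 5 of 10 with offset 0, the scanner's log ratio and the deposited log2 ratio, with medians of -0.77 to -0.82 and -1.09 to -1.12. In the cortex and hippocampus list, 4 of 12 were at least 2-fold lower than in both controls, with medians of -0.93 and -0.74. That number was 5 with offset 0, the scanner's log ratio, median centring or no normalization, and 6 with the deposited log2 ratio. The medians were then -0.96 to -1.12 and -0.87 to -1.06. The list for thalamus and habenula, regions rich in mu receptors, had medians of 0.46 and 0.24 over 8 genes, and without normalization 0.03 and -0.17. All 10 cerebellum markers, such as Gabra6 (3.87 and 3.92), were at least 2-fold higher than in both controls, and their summed normalized intensity was 285473 and 292721 in the TDAG51-/- channels beside 45763 and 49231 in the controls. Pcp2 and Cbln1 were saturated in both TDAG51-/- channels, and without them the sums were 120386 and 128941 beside 15976 and 18948. Of 9 detected hindbrain and brainstem markers, 7 were at least 2-fold higher, with medians of 2.82 and 2.95. That number was 8 with offset 0, the scanner's log ratio and the deposited log2 ratio. Between the controls, the median differences of the striatum, cerebellum and hindbrain lists were -0.09, 0.04 and -0.03. Single genes of the striatum and hindbrain lists were more than 2-fold apart between the controls. The summed normalized intensity of the hindbrain list was 2279 in TDAG51+/+ and 3592 in the RNA labelled KO Tg. Of the 7 detected pituitary markers, 2 were at least 2-fold lower in TDAG51-/- than in the RNA labelled KO Tg and 1 (Cga) was at least 2-fold higher than in TDAG51+/+, with medians of 0.18 against TDAG51+/+ and -0.28 against the RNA labelled KO Tg. The former, Prl and Gh, were 18.7-fold and 10.6-fold lower in TDAG51-/- than in the RNA labelled KO Tg and had log2 ratios of 0.13 and 0.05 against TDAG51+/+, and Pomc, which the pituitary also makes, did not share this difference. The part of brain regions in the ratios of Penk and Pdyn was not tested.

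**Figure D4:**
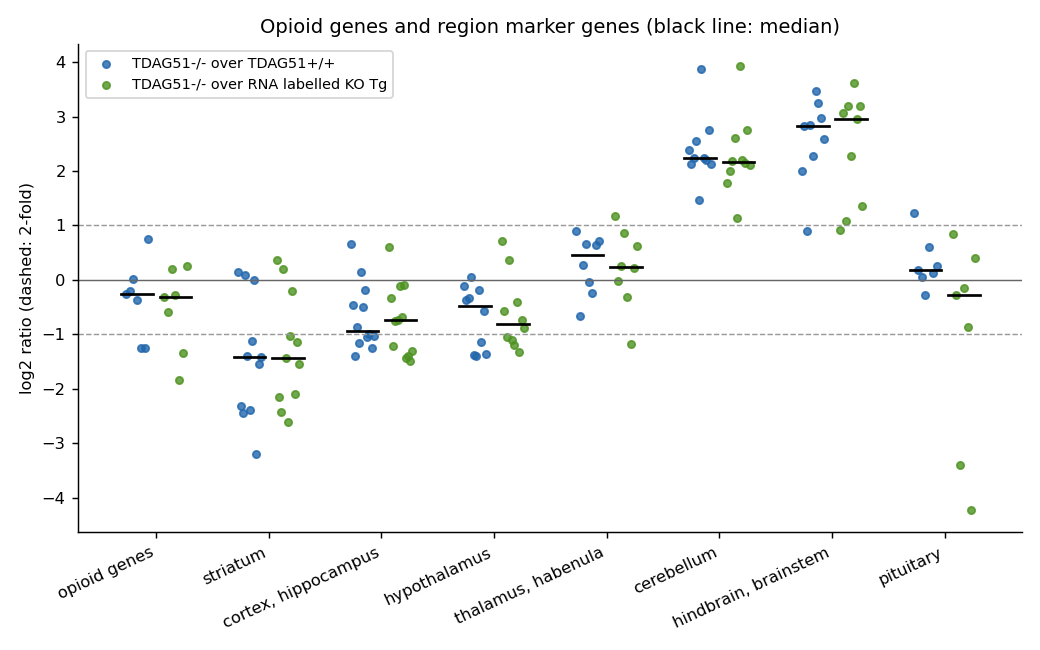
Log2 ratio (y axis) of TDAG51-/- over each control for every detected gene of the opioid group and of the 7 lists of region markers, by brightest probe, with the median as a black line and 2-fold as dashed lines. Striatum markers have medians of -1.41 and -1.43, cerebellum markers of 2.24 and 2.16, and the opioid genes of -0.26 and -0.32.

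The genes most like each member were found over the 4 normalized channel levels, each gene centred on its own mean, among 15729 named genes above background in every channel. Likeness over 4 channels of 2 arrays is a description of these arrays alone. The 5 genes nearest to Penk were Wnt7b, a Wnt ligand (distance 0.04), Pmch, the hypothalamic marker above (0.09), Zfp24, Col6a2 and Btbd8, and 60 genes lay within 0.25 of it. Those nearest to Pdyn were Ikzf3 (0.04), Rims4 and Rimbp2, which act at the presynaptic release site, Sema4a and Gpsm2, and 16 genes lay within 0.25. Ikzf3 had log2 ratios of -1.21 and -1.84 and a difference of 0.73 between the controls, beside -1.25, -1.84 and 0.68 for Pdyn. The other members had smaller changes, as most genes had, and many more neighbours within 0.25. Pnoc had 691 (nearest Mast1, Rab38, Dnajc3, Fbxl15 and Dnaaf2) and Oprk1 had 206 (Ubxn11, Snhg8, Keg1, Pacs1 and Sh3pxd2a). Oprd1 had 574 (Dcc, Socs6, Slc37a1, Nras and Stxbp6), Oprm1 had 1675 (Nif3l1, Ndor1, Gemin2, Fastkd1 and Olfr577) and Oprl1 had 2649 (Selenoh, Wdr35, C87436, Gusb and Arhgap45).

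Penk and Pdyn stayed at least 2-fold lower than each control under all 8 alternative settings of correction, normalization, filter and probe choice. Not all of these could change the values. The 2 filters could not, since the probes were well above background in every channel. The choice of probe could not change Pdyn, which had 1 probe, and the scanner's and the deposited ratios were close to each other. Penk ranged from -1.81 to -1.12 against TDAG51+/+ and from -1.93 to -1.31 against the RNA labelled KO Tg, with the lowest values without normalization. Pdyn ranged from -1.45 to -1.25 and from -2.09 to -1.84. Pnoc stayed above 0 (0.63 to 0.89 and 0.03 to 0.30) and below 2-fold. Oprm1 (-0.61 to -0.12 and -0.59 to -0.28), Oprd1 (-0.46 to -0.18 and -0.65 to -0.31) and Oprk1 (-0.38 to -0.21 and -0.81 to -0.58) stayed below 0 and within 2-fold, and Oprl1 changed sign.

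**Figure D5:**
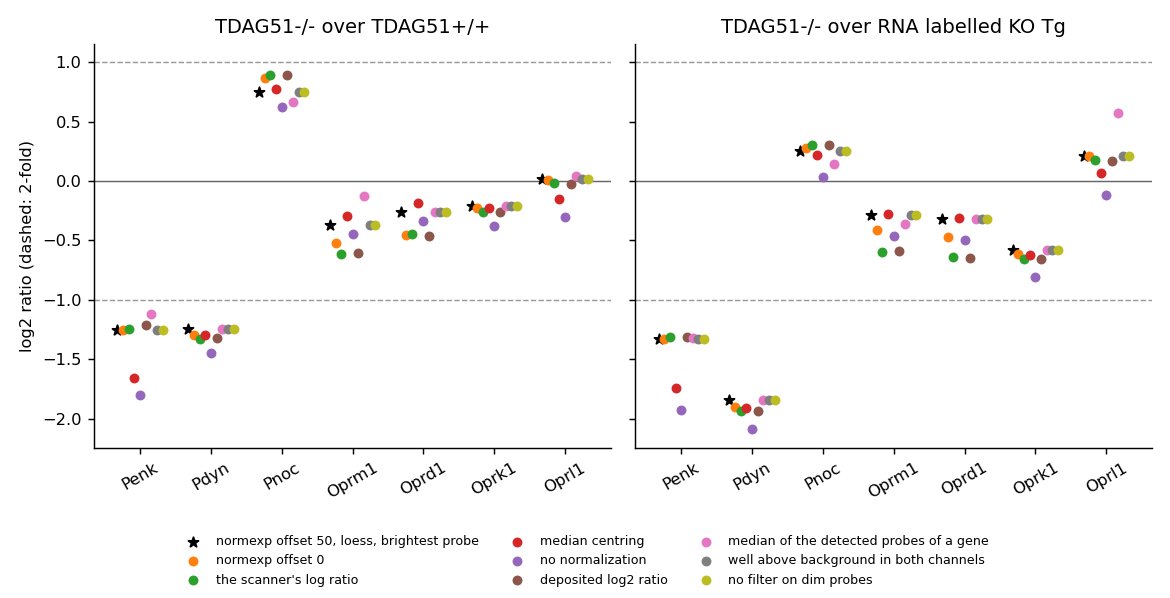
Log2 ratio (y axis) of each opioid gene (x axis) over TDAG51+/+ (left) and over the RNA labelled KO Tg (right) with the reported processing (stars) and under 8 alternatives (dots), with 2-fold as dashed lines. Every point of Penk and Pdyn lies below the lower dashed line and every point of the other 5 genes between the dashed lines.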

How the data were processed

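Brain RNA was measured on 2 two-colour arrays. The authors deposited scanner files of Agilent Feature Extraction 9.5.3.1. For each spot these hold a mean intensity and a median background intensity per channel, marks for background and saturation, and a corrected log10 ratio (Cy5 to Cy3) with its error. A second table deposited by the authors gives log2 ratios (Cy3 to Cy5) and lacks a value for 1 opioid probe on each array. How the authors normalized that table is not given in the sources used here, and it differed from the scanner's ratio by a median of 0.0059 and 0.0058.

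Here, intensities were corrected with normexp (offset 50) and normalized by loess within arrays with the R (4.3.3) package limma (3.58.1), files being read by data.table (version 1.17.8), with control and outlier spots at weight 0, and levels across arrays by Aquantile. The offset understates ratios of dim probes. Ratios are TDAG51-/- over control. A gene was represented by its probe of highest mean intensity, and 2-fold, the study's threshold, was used. A probe near background in 1 channel has a bound from that channel. The bound uses the probe's own level there or the lowest level well above background, whichever is higher. Tables and figures used Python 3.11.15, numpy 2.4.6, pandas 2.3.3 and matplotlib 3.10.9. Names of 32716 of 41174 probes matched a RefSeq gene table (GRCm38.p6), used for names alone. The other 8458 probes were taken under their listed name or probe name and count among all detected genes. The correction and normalization were also run on simulated arrays, with far fewer changed probes than here and no saturation. That run does not test them under changes as many as these arrays had.

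The members, the lists of pathway and marker genes and the tests were chosen with earlier results of these data known. The genes named were every probe of the members, Pomc and Phlda1, pathway genes 2-fold from both controls, up to 4 of the brightest genes of each region list, and the 5 genes nearest to each member. The other genes named from the lists were chosen after their values were seen. As alternatives, the deposited log2 ratio, the scanner's own ratio, offset 0, centring on the median, omission of the normalization, the median of a gene's probes and 2 other filters were tried. Sums without saturated genes were added after the data were seen. A single marker result is not reported here, though the counts of its list include it.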

Additional observations from a re-analysis of the deposited data

Results flagged for a closer look

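A probe outside the opioid group also carries a preproenkephalin description. It is the probe for the striatal cDNA clone AK047709, listed under another gene name, 3334 bases from the nearest Penk probe on chr4 of mm7 and on the same strand, and it was named after its values were seen. It was marked for a closer look because it read 245.1 in TDAG51+/+, well above background, and 60.0 in TDAG51-/- on array 1, 53.6 in TDAG51-/- and 59.4 in the RNA labelled KO Tg on array 2, all 3 not well above background. It was at least 3.8-fold lower in TDAG51-/- than in TDAG51+/+, with no ratio on array 2. The Penk probes did not share the low value in the RNA labelled KO Tg, where they had their highest intensities. A further clone with this description, AK043612, was not well above background in any channel.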

How the results depend on the processing

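The counts of opioid genes past 2-fold were the same under every alternative run. The 2 filters could not change them, since the brightest probes of all 7 genes were well above background in every channel. The median log2 ratio of the 7 genes moved by more than the SD between spots, from -0.26 against TDAG51+/+ to -0.45 with offset 0, -0.45 with the scanner's log ratio, -0.38 without normalization and -0.46 with the deposited log2 ratio, and from -0.32 against the RNA labelled KO Tg to -0.47, -0.64, -0.50 and -0.65. Without normalization, 7 instead of 4 pathway genes were at least 2-fold lower than in both controls, and the median log2 ratio of all detected genes was then -0.23 and -0.28. The cause of the other shifts was not tested. Of 86 values of these counts and medians under an alternative, 77 were unchanged within the limits used and 9 moved. Of 149 values for single genes and for the medians of the pathway lists, 91 were unchanged and 58 moved. Some of the unchanged values were fixed in advance. The 2 filters could not change the ratios of the single opioid genes or their median. The choice of probe could not change Pdyn, Oprd1 and Oprk1, which had 1 probe each. No paired analysis was possible because each comparison has 1 array, and for the same reason no array could be left out. Signal over background limits Oprm1 and Oprd1, which read 93.0 to 182.8 by their brightest probes over median backgrounds of 39.0 to 44.0.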
